A study of Mus musculus with 6 samples.

Results

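Interferon-stimulated genes are the antiviral genes that a cell turns on when type I interferon binds its receptor. The receptor's kinases phosphorylate STAT proteins, which join IRF9 and bind a DNA element, the interferon-stimulated response element, in front of these genes. Their products sense viral nucleic acid, cut or block viral RNA, halt translation, or tag proteins with the ubiquitin-like protein ISG15. Many are also transcribed at a basal level without infection, and blood progenitors are known to respond to interferon. The list examined holds 36 such genes, of which 32 were measured, out of 22180 genes with a probe set of their own. A gene was measured where the array annotation gave a probe set that symbol alone, and it was represented by the probe set of highest mean over the arrays. Oas1a, Dtx3l and Ifi47 had only probe sets shared with another gene, Ifi44 was not named in the annotation table, and these 4 are not analysed here.

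RNA came from megakaryoerythroid progenitors (MEP), marrow cells from which both megakaryocytes and red cells form, sorted with fluorescent antibodies from fresh whole marrow. The 3 knockout arrays came from C57BL/6 mice lacking T-bet, the transcription factor encoded by Tbx21 that drives interferon-gamma production in T helper 1 and natural killer cells. The 3 control arrays came from wild-type C57BL/6 mice. According to the labels each array was a different mouse; age, sex and the design of the deleted allele were not stated in the labels, and no treatment is named. Values are log2 signals as deposited, n is 3 per group throughout, SE is limma's standard error, and a difference is knockout minus wild type. The comparison asks whether the antiviral program of these progenitors differs when T-bet is missing.

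The labels were checked before the comparison. Of 14 measured genes of MEP, red cell and megakaryocyte lineages, 13 lay above the median probe set (6.47), as did 3 of 12 monocyte and macrophage genes, 3 of 12 neutrophil genes and 2 of 10 T and NK cell genes. Of B cell genes 7 of 9 did too, with 6 of 10 plasmacytoid dendritic cell, 6 of 9 stem and multipotent progenitor and 5 of 8 endothelial and stromal genes. Tbx21 read 6.41, 6.60 and 6.46 in knockout and 6.54, 6.62 and 6.60 in wild-type arrays, so the groups overlapped and the targeted gene gave no check of the labels. Knockout replicates 1 and 2 and wild-type replicate 1 showed Xist, the RNA of the inactive X chromosome, together with Y-linked signal. Wild-type replicate 2 carried Xist alone, and replicate 3 of each group Y-linked signal alone. These 3 arrays with both signals go against the description of each array as 1 mouse, and results are also given without them.

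The element that these genes share in textbook descriptions can be read in their promoters. RefSeq (GRCm38.p6) gave a 300-base window, from 250 bases before the start site to 50 after it, for 25 of the 36 genes. Its core, GAAANNGAAA, was searched on both strands and was found in 13 of the 25 (52%), against 3.99% of 27025 genes with such a window. The stretches follow for the 7 genes with a match that lay, with 15 flanking bases, wholly before the start, because they let the spacing and strand of the element be compared; capitals mark the core, which appears as its reverse complement where it lies on the other strand.

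Isg15, chr4:156200860-156200911, minus strand: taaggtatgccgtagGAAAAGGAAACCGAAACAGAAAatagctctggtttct
Bst2, chr8:71537572-71537617, minus strand: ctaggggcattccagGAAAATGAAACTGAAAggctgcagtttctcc
Ifit1, chr19:34640770-34640828, plus strand: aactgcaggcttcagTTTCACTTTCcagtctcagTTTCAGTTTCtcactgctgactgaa
Ifit3, chr19:34583392-34583431, plus strand: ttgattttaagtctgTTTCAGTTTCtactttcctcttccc
Rsad2, chr12:26456548-26456587, minus strand: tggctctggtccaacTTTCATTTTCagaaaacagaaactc
Oas3, chr5:120777710-120777749, minus strand: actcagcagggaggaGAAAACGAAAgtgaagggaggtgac
Trim30a, chr7:104465205-104465244, minus strand: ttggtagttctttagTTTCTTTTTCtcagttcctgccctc

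The Isg15 stretch held 3 overlapping cores, beginning 78 bases before the start, and that of Bst2 held 2 overlapping cores, beginning 130 bases before it. Ifit1 carried 2 separate cores within 104 bases of its start, both on the opposite strand. Of the cores of Ifit3 only the one nearer its start is shown, and Trim30a had another window, in which a core lay just after the start. In Oas1a and Oas1g the cores lay too close to the start to be shown, and in Ddx58, Ifih1, Eif2ak2 and Trim21 they lay only after it. A T-box site core, GGTGTGA, the kind of sequence T-bet binds, was searched on both strands and was in 4 of the 25 (16%), in Ifit1, Ifi35, Isg15 and Oas3, against 4.6% of all genes. The third motif searched, the gamma-activated sequence TTCNNNGAA, was in 7 of the 25 (28%), against 9.55% of all genes. These matches describe letters in the windows and are not evidence of binding.

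No interferon-stimulated gene passed the test between genotypes. With limma's moderated test over all 41345 probe sets, 0 of the 32 genes passed an adjusted p of 0.05 (0% of all probe sets did), and each had an adjusted p of 1. At an unadjusted p under 0.05, 0 of the 32 were higher and 0 lower, where 1.44% and 1.7% of all genes were; without wild-type replicate 2 there was 1, Isg15, which was higher (1.03% of all genes). The differences lay between -0.16, for the nucleic acid sensor gene Zbp1, and 0.27, for the oligoadenylate synthetase gene Oas1g, with standard errors of 0.09 to 0.33. Of the 32, 25 differences were above 0, where 48.2% of all genes were, and their median was 0.09, against -0.00 over all genes. For 28 of the 32 the 95% interval stayed inside 1.5-fold both ways (85.9% of all genes), and it was wider for Ifit3, Oas1g, Isg15 and Rtp4. Outside the dimmest 30% of probe sets the interval stayed inside for 27 of 31, against 93.1% of genes. The p-values measure the spread between these 6 arrays, and in sorted cells a change in the share of cells that make an RNA and a change in RNA per cell cannot be told apart.

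**Figure D1:**
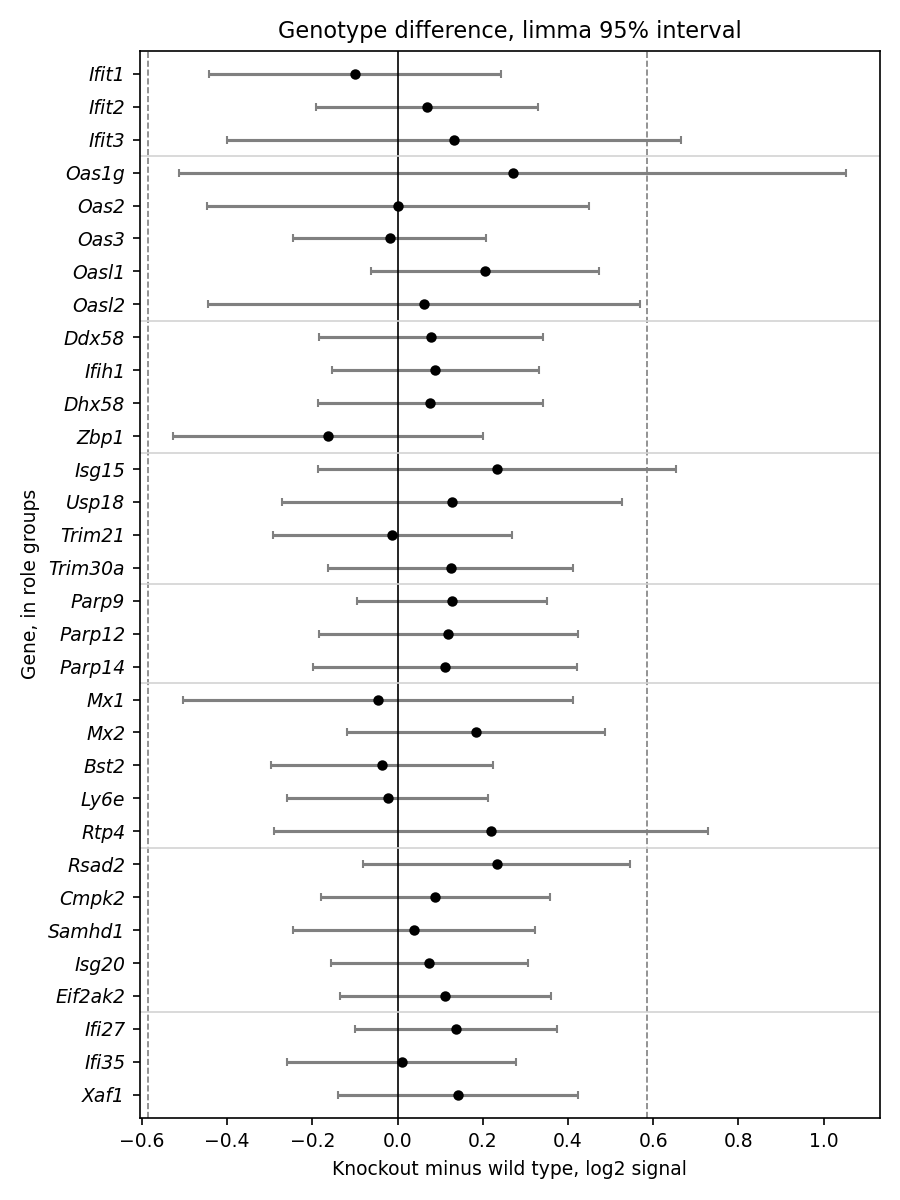
Knockout minus wild-type difference in log2 signal for each of the 32 genes, in role groups separated by grey lines; points are differences, bars limma 95% intervals and dashed lines 1.5-fold. All 32 intervals hold 0, and 25 points lie above it.

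The 2',5'-oligoadenylate synthetases make the messenger that activates the RNA-cutting enzyme RNase L. Oasl1, an OAS-like protein without that activity that represses translation of Irf7 mRNA, had the smallest unadjusted p of the 32 genes. It read 8.43, 8.68 and 8.49 in knockout and 8.33, 8.44 and 8.21 in wild-type arrays, or a difference of 0.21 (SE 0.11; 95% interval -0.06 to 0.47; n = 3 and 3). The groups overlapped by a narrow margin, knockout replicate 1 lying just under wild-type replicate 2. Oas1g read 6.12, 5.64 and 5.89 in knockout and 6.10, 5.89 and 4.85 in wild-type arrays. Its difference of 0.27 (SE 0.33) had the widest interval of the list, -0.51 to 1.05, and wild-type replicate 3 stood apart from the other 5 arrays; without it the difference was -0.11. Oas2, Oas3 and Oasl2 differed by 0.00, -0.02 and 0.06. Wild-type replicate 3 was the lowest of the 6 arrays for 4 of the 5 measured genes of this family, Oas3 being the exception.

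The ISG15 system attaches ISG15 to proteins, and USP18 removes it and also restrains the interferon receptor. Isg15 read 6.92, 7.31 and 6.95 in knockout and 6.68, 7.15 and 6.66 in wild-type arrays, or a difference of 0.23 (SE 0.18; 95% interval -0.19 to 0.65). Knockout exceeded wild type between arrays of the same number each time, by 0.24, 0.16 and 0.29, but the groups overlapped because wild-type replicate 2 lay above knockout replicates 1 and 3. Its unadjusted limma p was 0.229 in the main fit. With the replicate number as a block it was 0.0487, with an adjusted p of 0.766. Isg15 was the 1 gene of the 32 under 0.05 in that alternative fit, for which the share of all genes was not computed. Usp18 read 7.80, 8.28 and 7.99 in knockout and 7.96, 8.07 and 7.64 in wild-type arrays, or a difference of 0.13 (SE 0.17). Among the ubiquitin ligases, Trim21, the cytosolic antibody receptor, read 8.75, 9.06 and 8.98 against 8.82, 9.03 and 8.97, a difference of -0.01 (SE 0.12), and Trim30a differed by 0.12. All 4 genes of this group had their highest value in knockout replicate 2.

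Among the effectors that act on RNA, nucleotides or translation, Rsad2 was the 1 gene of the 32 whose groups did not overlap; this held with higher knockout values for 3.52% of all genes and with lower ones for 5.18%. Rsad2 encodes viperin, a radical-SAM enzyme that makes a chain-terminating nucleotide, and its neighbour Cmpk2 a nucleotide kinase. Rsad2 read 7.84, 8.06 and 7.81 in knockout and 7.79, 7.76 and 7.46 in wild-type arrays, or a difference of 0.23 (SE 0.13; 95% interval -0.08 to 0.54). The gap between the groups was narrow, and with each array centred on its median it closed (0 of 32 genes apart, against 3% of all genes higher). With fewer arrays more genes stand apart overall. On the higher side 9 of the 32 did so without knockout replicate 1 (12.5% of all genes), 3 without knockout replicate 3 (7.2%) and 6 without wild-type replicate 2 (7.43%). There was 1 without knockout replicate 2 (7.66% of all genes), 1 without wild-type replicate 1 (7.9%) and 1 without wild-type replicate 3 (6.79%). On the lower side 3 did so without wild-type replicate 3 (7.86% of all genes), and 0 without any other single array (8.85% to 13.7%). Isg20, an exonuclease gene, read 9.83, 9.96 and 10.07 against 9.89, 9.87 and 9.87, a difference of 0.07 (SE 0.10), with the knockout arrays spread on both sides of the wild-type ones. Cmpk2 differed by 0.09. Eif2ak2, the double-stranded RNA kinase PKR that halts translation, differed by 0.11, and Samhd1, which breaks down deoxynucleotides, by 0.04. All 5 differences of this group were above 0 and none passed the test.

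The cytosolic RNA sensors RIG-I (Ddx58) and MDA5 (Ifih1), and LGP2 (Dhx58), which modulates them, had nearly equal differences of 0.08, 0.09 and 0.08. Ifih1 read 9.63, 9.84 and 9.79 in knockout and 9.72, 9.71 and 9.57 in wild-type arrays (SE 0.10; 95% interval -0.15 to 0.33). In each of the 3 genes knockout replicate 2 was highest and wild-type replicate 3 lowest. Zbp1, a Z-form nucleic acid sensor that triggers necroptosis, went the other way. It read 7.17, 7.49 and 7.32 in knockout and 7.63, 7.62 and 7.21 in wild-type arrays, or a difference of -0.16 (SE 0.15; 95% interval -0.53 to 0.20), and the groups overlapped.

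PARP9, PARP12 and PARP14 are interferon-induced ADP-ribosyltransferase family proteins. Parp9 read 8.49, 8.67 and 8.55 in knockout and 8.45, 8.49 and 8.39 in wild-type arrays, or a difference of 0.13 (SE 0.09; 95% interval -0.09 to 0.35), the groups touching between knockout replicate 1 and wild-type replicate 2. Parp14 read 8.59, 8.93 and 8.76 against 8.76, 8.72 and 8.48, a difference of 0.11 (SE 0.13), and Parp12 differed by 0.12. The IFIT proteins bind foreign RNA ends and the translation machinery. Ifit2 read 7.29, 7.21 and 7.49 in knockout and 7.16, 7.30 and 7.32 in wild-type arrays, or a difference of 0.07 (SE 0.11), and Ifit1 6.75, 6.87 and 6.61 against 6.92, 7.03 and 6.58, a difference of -0.10 (SE 0.14). Both overlapped between groups. Ifit3, at 7.79, 6.92 and 7.07 against 7.15, 7.16 and 7.06, was high in knockout replicate 1 alone; its difference of 0.13 (SE 0.22) was -0.13 without that array.

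Among factors that block viral entry, trafficking or release, the gene of highest mean was Ly6e, which encodes a GPI-anchored surface protein. It read 12.85, 12.80 and 12.89 in knockout and 12.88, 12.74 and 12.98 in wild-type arrays, or a difference of -0.02 (SE 0.10; 95% interval -0.26 to 0.21). Mx2, a dynamin-like GTPase gene, read 5.71, 5.93 and 5.99 against 5.60, 5.88 and 5.60, a difference of 0.18 (SE 0.13), with wild-type replicate 2 inside the knockout range. Mx1, the 1 gene of the list among the dimmest 30% of probe sets, differed by -0.05, and the tetherin gene Bst2 by -0.04. Rtp4, a chaperone of receptor trafficking with antiviral activity, read 8.30, 8.66 and 8.23 in knockout and 8.42, 8.37 and 7.74 in wild-type arrays, or a difference of 0.22 (SE 0.21) in which wild-type replicate 3 was again the low array. Of the other interferon-inducible genes, Ifi27, a mitochondrial protein gene, read 8.47, 8.45 and 8.42 against 8.32, 8.44 and 8.18, a difference of 0.14 (SE 0.10). Ifi35 read 8.98, 9.11 and 9.01 against 9.07, 9.16 and 8.85, a difference of 0.01 (SE 0.11), and the apoptosis-linked gene Xaf1 differed by 0.14.

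Many of the genes shared a direction in single arrays, and the arrays whose means lay furthest from 0 were 1 of each genotype. After each gene's mean over the 6 arrays was subtracted, the 3 knockout arrays, in the order of their numbers, had means of -0.02, 0.13 and 0.02 over the 32 genes and the wild-type arrays means of 0.02, 0.06 and -0.21. Over all genes these means lay between -0.01 and 0.01. Wild-type replicate 3 was the lowest of the 6 arrays for 22 of the 32 genes, against 12.9% of all genes, and above a gene's own mean for 3. Knockout replicate 2 was the highest for 17 of the 32, against 12.9% of all genes. Both held for 14 of the 32, against 1.91% of all genes. These counts were made after the values were seen. Not all genes followed: the mean of the IFIT family in knockout replicate 2 was -0.09, and Ly6e was highest in wild-type replicate 3.

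**Figure D2:**
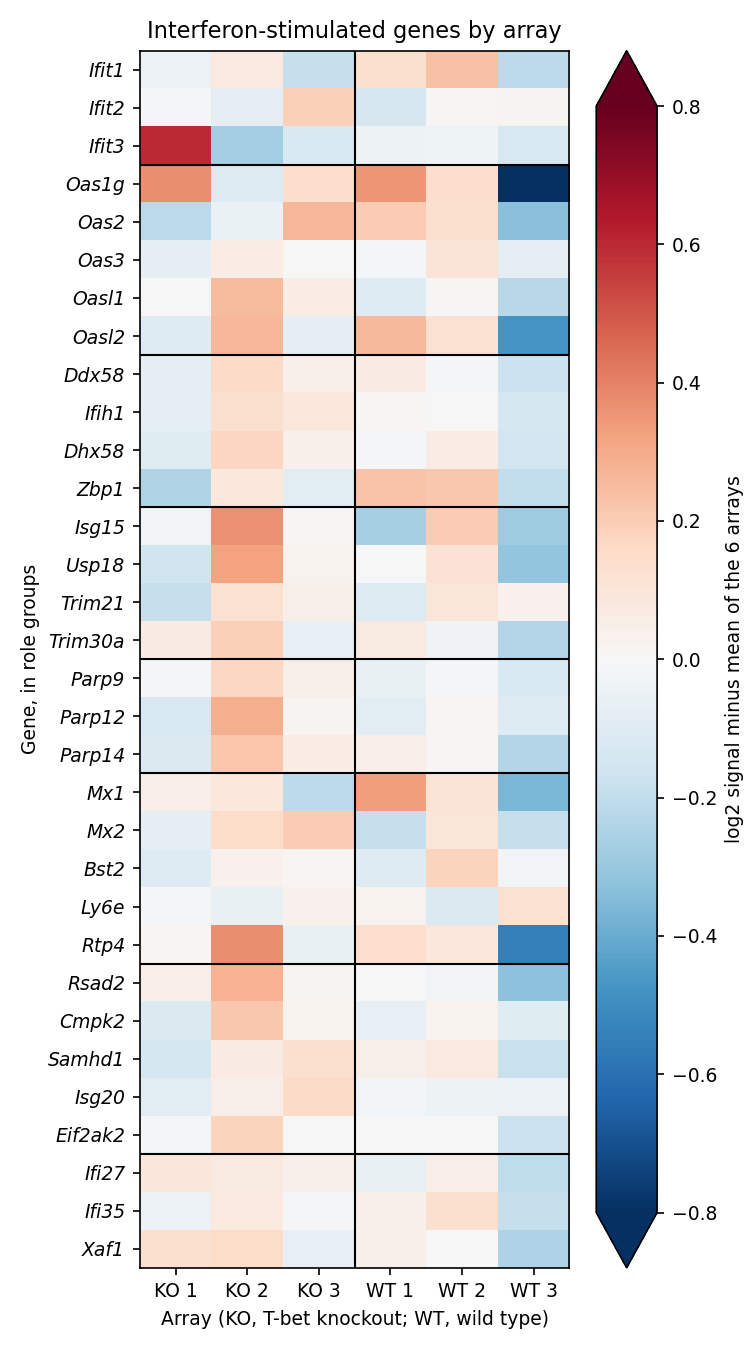
Log2 signal minus the gene's mean over the 6 arrays, for 32 genes in rows and 6 arrays in columns, with black lines between role groups and genotypes. The wild-type replicate 3 column is red for 3 of 32 genes and otherwise blue, Oas1g falling below the colour scale, and the knockout replicate 2 column is red for 27.

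**Figure D3:**
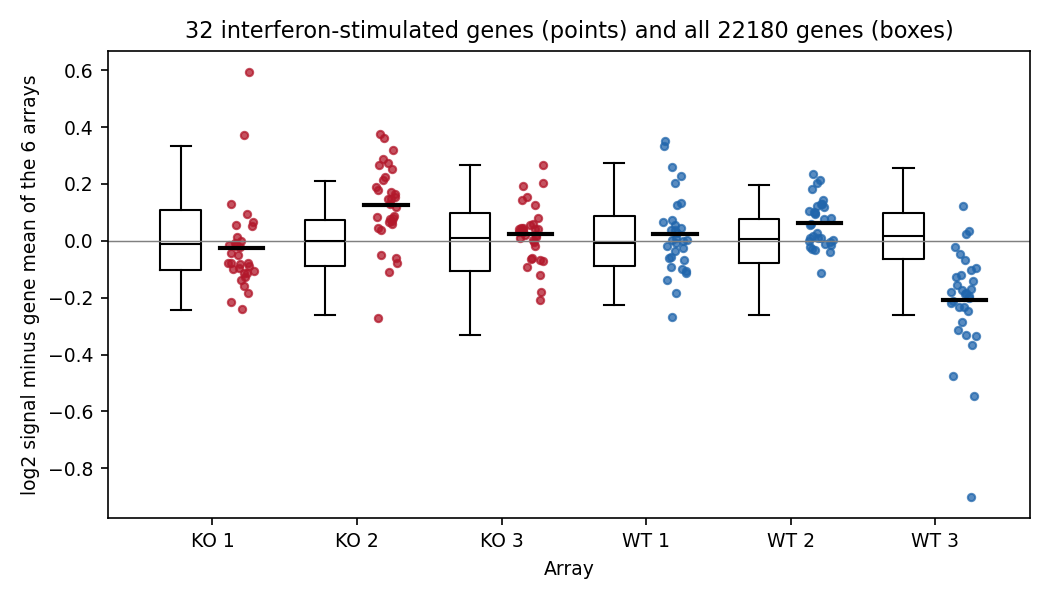
Log2 signal minus the gene's mean, by array: points are the 32 interferon-stimulated genes, thick bars their mean, and boxes all 22180 genes (median, quartiles, and 5th to 95th percentile whiskers). The thick bar of wild-type replicate 3 lies at -0.21 and that of knockout replicate 2 at 0.13.

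Without wild-type replicate 3 the median difference was 0.03, with 22 of 32 above 0 (50.1% of all genes). Without knockout replicate 2 it was also 0.03, with 24 of 32 above 0 (48% of all genes). Without both it was -0.02, with 12 of 32 differences above 0 (50.2% of all genes). Both arrays were picked by their values on these genes, so leaving them out was bound to lower the mean difference and is no test. Leaving out any other single array gave medians of 0.10 to 0.13. Without the 3 arrays with mixed Xist and Y-linked signal, 1 knockout array remained against 2 wild-type arrays, and the median was 0.10 with 25 of 32 above 0 (49.9% of all genes). Within the 3 arrays of mixed signal, the mean of knockout replicates 1 and 2 exceeded wild-type replicate 1 for 20 of 32 genes (51.1% of all genes), with a median of 0.06.

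Arrays of the same number gave different pictures. Knockout replicate 1 exceeded wild-type replicate 1 for 11 of the 32 genes, against 49.1% of all genes, with a median of -0.06. Between the arrays numbered 2, the knockout value was higher for 21, against 47.7% of all genes, with a median of 0.10. Between those numbered 3, it was higher for 31, all but Ly6e, against 49.3% of all genes, with a median of 0.19. The arrays numbered 1 both carried the mixed signal and those numbered 3 both carried Y-linked signal alone, while those numbered 2 differed in class. The comparison numbered 3 holds wild-type replicate 3, the lowest array for 22 of the 32 genes (12.9% of all genes). All 3 differences were positive for 7 genes (Oasl1, Isg15, Parp9, Mx2, Rsad2, Ifi27 and Xaf1), where 12.4% of all genes behaved so, and all 3 were negative for 0, against 14.2% of all genes.

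**Figure D4:**
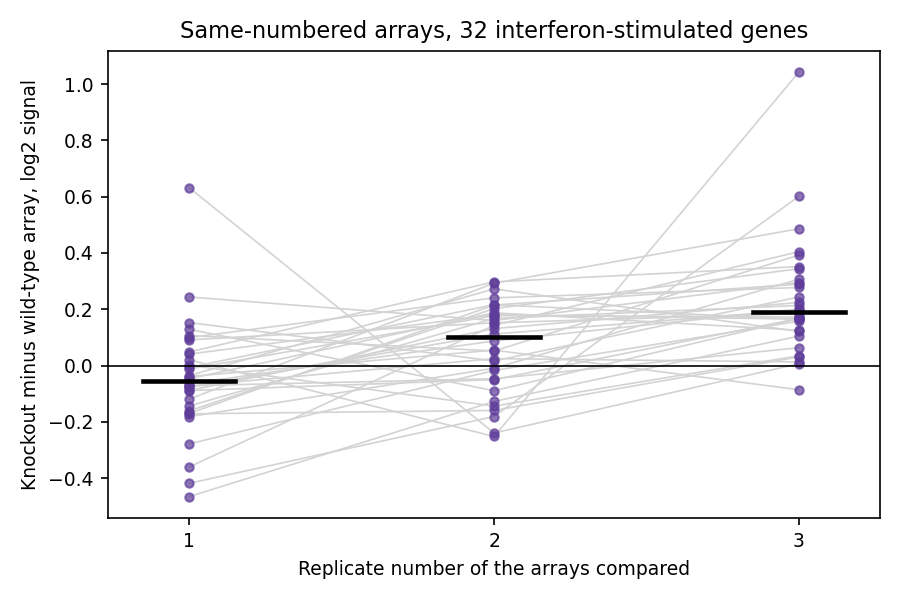
Knockout minus wild-type log2 signal between arrays of the same replicate number; each point is 1 of the 32 genes, grey lines join a gene and thick bars are medians. The medians are -0.06, 0.10 and 0.19 for numbers 1, 2 and 3.

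The rest of the pathway was read from fixed lists. None of its genes passed the adjusted test, and 0 had an unadjusted limma p under 0.05, where 1.44% of all genes were higher and 1.7% lower. Of 8 measured STAT and interferon regulatory factor genes, 7 were above 0 (median 0.07), where 48.2% of all genes were. Stat2, which carries the activation domain of the interferon-induced complex, read 8.92, 9.20 and 9.15 in knockout and 8.83, 8.92 and 8.70 in wild-type arrays, or a difference of 0.27 (SE 0.12; 95% interval -0.00 to 0.55; adjusted p = 1). Knockout replicate 1 lay just under wild-type replicate 2, so the groups overlapped. Irf7, the factor that amplifies interferon gene transcription, read 8.75, 8.87 and 8.57 against 8.74, 8.70 and 8.14, and Irf9, the DNA-binding part of the complex, 9.11, 9.53 and 9.30 against 9.25, 9.30 and 8.97. In Stat2, Irf7 and Irf9 the lowest array was wild-type replicate 3 and the highest knockout replicate 2, as in 14 of the interferon-stimulated genes and 1.91% of all genes. The other genes of this list did not show that order, and Irf1 differed by -0.18. The order was also met by Ifnar1, Trim25 and Adar of the other pathway lists, and by Klf1 and Cd4 of the cell type lists.

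The lists of upstream genes and of negative regulators had medians of -0.06 to 0.02. Over all genes, 48.2% of differences were above 0. The interferon genes themselves, 10 measured and 6 of them among the dimmest 30%, had a median of -0.06 with 3 above 0. Ifnk, of smallest p and among the dimmest, read 4.75, 4.67 and 4.68 against 4.87, 4.83 and 4.82. Its knockout values all lay below its wild-type values, as held for 5.18% of all genes. Receptor and Janus kinase genes had a median of 0.02 (6 of 9 above 0), with the lambda receptor gene Ifnlr1 at 6.46, 6.18 and 6.13 against 6.38, 6.38 and 6.53. In this list Ifngr1 had groups that did not overlap, at 11.62, 11.64 and 11.64 against 11.59, 11.59 and 11.58. Its difference was 0.05 (SE 0.08), and 3.52% of all genes stood apart on that side. Genes of nucleic acid sensing upstream of interferon had a median of 0.01 (6 of 12 above 0), with the RNA-editing enzyme gene Adar at 9.30, 9.46 and 9.33 against 9.28, 9.31 and 9.20. Negative regulators had a median of 0.01 (5 of 8 above 0), with Socs1, an inhibitor of Janus kinases, at 6.45, 6.65 and 6.31 against 6.40, 6.64 and 6.75. In wild-type replicate 3 the mean deviation of these 4 lists lay between 0.03 and 0.04, and that of the STAT and regulatory factor list was -0.14.

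Markers of other cells were set beside the arrays that stood out. In wild-type replicate 3 the mean deviation of 8 marker lists lay between -0.06, for T and NK cells, and 0.13, for stem and multipotent progenitors. In knockout replicate 2 it lay between -0.19, for B cells, and -0.01, for T and NK cells. B cell genes were highest in knockout replicate 3 (0.45) and lowest in wild-type replicate 2 (-0.45). Between genotypes their median difference, 0.34, was the largest of the 8 lists, with 7 of 9 above 0 (48.2% of all genes). At an unadjusted limma p under 0.05, Itga2b (-0.34), Cnrip1 (-0.31) and Col1a2 (-0.39) were lower in knockout (1.7% of all genes) and 0 markers higher (1.44%). None passed the adjusted test. The part of B cells and of these differences in the results was not tested. Plasmacytoid dendritic cells are a main source of type I interferon, and their 10 markers, which include Bst2 itself, had mean deviations of -0.07 to 0.07 over the 6 arrays. The part of stem and progenitor cells in the low values of wild-type replicate 3 was not tested.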

How the data were processed

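The authors deposited log2 signals, 1 value per probe set and array, and the submitters' processing notes name Affymetrix Expression Console 1.4.1.46; the background, normalization and summarisation methods were not stated there. The log2 scale was inferred from the deposited values, whose highest, 14.2, exceeds the natural log of the largest 16-bit intensity, 11.1. Sequencing depth does not apply to arrays. Detection calls were not stated and none were used, and 3 arrays per group limit the precision. Of 41345 probe sets, 23521 had 1 gene symbol, 1814 several, and 16010 were unnamed here. Per gene, the probe set of highest mean was used.

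Differences were tested with limma 3.58.1 (lmFit, eBayes) in R 4.3.3 over all probe sets, with Benjamini-Hochberg adjustment and a threshold of 0.05; the code was tested on simulated data. The lists, and the 32 measured genes, were chosen with earlier results of these data known. Genes given in full were those of highest mean and smallest p in each role group, any of the 32 whose groups did not overlap, and the gene of smallest p in each pathway list. Oas1g, Usp18, Ifit3, Rtp4, Irf7, Irf9 and Ifngr1 were added after their values were seen. Deviations from group means correlated between same-numbered arrays at 0.285, 0.116 and 0.115 over genes and at 0.212, 0.0569 and 0.140 over all probe sets. Over genes each passed 0.1, and all 6 arrays correlated best with the same-numbered array of the other genotype. The main fit left the numbers out because the labels do not state what they share, and an alternative fit took them as pairs. Dim means the lowest 30% of probe set means. Promoter sequences came from RefSeq; the array file names no genome build.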

Additional observations from a re-analysis of the deposited data

How the results depend on the processing

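In all 17 alternatives 0 of the 32 genes passed the adjusted threshold (limma, smallest adjusted p of any gene 0.707), and in the 16 planned ones the directions of 20 genes did not change (10 genes over all 17). At an unadjusted p under 0.05, 1 gene was higher with array weights (Oasl1) and 1 with the replicate block (Isg15), and the block changed no other call. The share of all genes past that threshold was not computed for these fits, so these counts have no background to be read against. The 1 gene whose groups stood apart became 0 with arrays centred on their medians and 13 without the arrays of mixed Xist and Y-linked signal, where 1 array was set against 2 and 35.7% of all genes stood apart on that side. When arrays were left out, including wild-type replicate 3 and knockout replicate 2 together (chosen after the values were seen), genes at an unadjusted p under 0.05 numbered 0 to 1 on either side, genes apart 1 to 9 (higher) and 0 to 6 (lower; the 6 were without both, where 12.4% of all genes were), the median lay between -0.0223 and 0.13 and positive differences numbered 12 to 28. Single differences that changed sign with an array left out spanned -0.0096 to 0.13 for Ifit2, -0.13 to 0.30 for Ifit3, -0.11 to 0.51 for Oas1g, -0.17 to 0.11 for Oas2, -0.0576 to 0.0298 for Oas3, -0.16 to 0.21 for Oasl2, -0.075 to 0.0776 for Trim21, -0.24 to 0.11 for Mx1, -0.10 to 0.0451 for Bst2, -0.0866 to 0.032 for Ly6e, -0.0415 to 0.12 for Samhd1 and -0.0802 to 0.0772 for Ifi35. Signs also changed with array weights (Ifit3 -0.0265, Oas3 0.0117, Trim21 0.0363, Mx1 0.0233), with a block for the Xist and Y-linked signal class (Oas3 0.026, Trim21 0.051, Bst2 0.0557), without the arrays of mixed signal (Ifit3 -0.0409, Ly6e 0.0326), after a further quantile normalization (Oas2 -0.0386, Ifi35 -0.0051) and with the mean of both Ifi35 probe sets (-0.0539); the cause was not tested. No scanner intensities or detection calls were used, so low signals may understate differences.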

Other observations

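The order that 14 of the 32 interferon-stimulated genes followed, lowest in wild-type replicate 3 and highest in knockout replicate 2, was then looked for in all genes outside the dimmest 30%. It was met by 285 of 16296 such genes (1.75%), among them these 14, from which the order was taken. The 10 of largest range over the 6 arrays were Chp1, Rtp4, Gm13283, Igtp, Ddx60, Xlr, 4933431G14Rik, Krtap5-5, Oasl2 and Irf7. Besides Rtp4 and Oasl2, which are on the list, Igtp (an interferon-inducible GTPase gene, with a range of 0.89), Ddx60 (an interferon-inducible helicase gene, 0.88) and Irf7 (0.74) belong to the interferon response. Chp1, which encodes a calcineurin-like calcium-binding protein, had the largest range, 2.11, with 4.14 in wild-type replicate 3 against 5.88 to 6.24 in the other 5 arrays. The means of Chp1 (5.76) and Gm13283 (5.71) lay just above the cut for the dimmest 30% (5.70). This search was made after the values were seen and carries no test.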
